A study of Mus musculus with 6 samples.

Results

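The comparison described here sets the day 7 array of the full-length DNMT1 line against the day 0 array of the same line, the end of a differentiation course against its start. It uses 2 of the 6 Affymetrix arrays of the series. All genes named by exactly 1 gene symbol were taken, each through its brightest probe set, which gave 18193 genes, of which 13277 had a mean signal at or above a floor and were measured. Both groups are mouse embryonic stem cells (ESCs) with a Dnmt1, Dnmt3a and Dnmt3b triple knockout (TKO) and a re-introduced full-length DNMT1 that is expressed ubiquitously (TKO_FL). Day 7 cells had been embryoid bodies for 1 day, had grown attached without leukaemia inhibitory factor (LIF) for 3 days, and then had 3 days of 10% KSR medium with 10 ng/ml Activin A. Day 4 cells were taken before the Activin A step, and day 0 cells were stem cells in 10% FBS with LIF. The second line (TKO_602), used here for comparison only, is the same knockout with a DNMT1 that lacks its N-terminal 602 amino acids. Whether a line is a single clone is not given in the sources used here, and bulk RNA was measured, so fewer cells of a type and less RNA per cell cannot be told apart.

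DNMT1 is the enzyme that copies DNA methylation to the new strand after replication, and Dnmt3a and Dnmt3b encode the enzymes that place new methylation. Stem cells held with LIF express a naive pluripotency programme. When LIF is taken away they pass through a formative state that resembles the epiblast of the implanting embryo, and Activin A, which signals through the receptors that Nodal uses, is commonly given to direct such cells towards mesoderm and endoderm. The trophoblast, which builds the embryonic part of the placenta, is a lineage that normal mouse stem cells seldom enter and that DNA methylation of genes such as Elf5 is known to restrain.

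Levels are log2 MAS5 signals. Signals below a floor of 5.37 were set to it, taken as the 40th percentile of an array (median over the 6), and a fold against a gene at the floor is a lower bound. There is 1 array a side, so no difference has a replicate check and none was tested. A gene was counted as higher or lower where the 2 arrays were at least 2-fold apart and the brighter one was at least 2 times the floor. Array medians lay between 6.02 and 6.19 over the 6 arrays, the trimmed mean signals between 496.7 and 496.9, and 12571 to 12812 measured genes stood above the floor on each. As a measure of error within the arrays, 2 probe sets of the same gene differed in their day 7 minus day 0 value by a median of 0.24 on the log2 scale over 5219 genes. Levels of different genes are not compared.

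At day 7, 1323 genes were at least 2-fold higher than at day 0, which is 9.96% of the 13277 measured, and 567 genes were at least 2-fold lower, which is 4.27%. The higher genes made up 70% of the 1890 genes past the fold. At least 4-fold higher were 241 genes (1.82%), against 77 genes (0.58%) at least 4-fold lower. The median difference over all measured genes was 0.06 on the log2 scale, and the levels of the 2 arrays correlated across genes with r = 0.943 (n = 13277 genes, which are not independent replicates). Day 0 signals of 240 higher genes and day 7 signals of 84 lower genes were at the floor, so their folds are bounds.

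**Figure D1:**
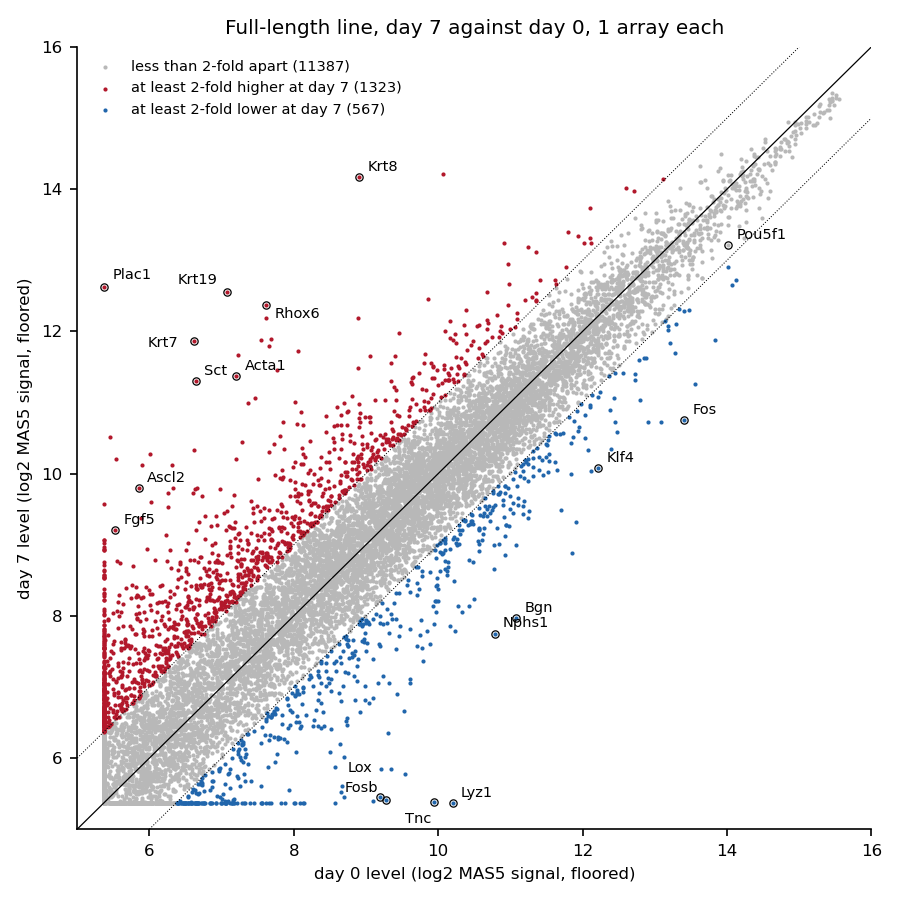
Level of each of the 13277 measured genes at day 7 (vertical axis) and at day 0 (horizontal axis) in the full-length line, both as log2 MAS5 signals with the floor at 5.37, 1 array each. The solid line marks equal levels and the dotted lines a 2-fold difference. The 1323 higher genes (red) reach farther from the line than the 567 lower genes (blue), and Plac1 lies farthest above it.

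The targeted genes come first. Dnmt1 had a level of 8.91 at day 7 and 9.65 at day 0, a difference of -0.74 in its brightest probe set and of -0.01 in the probe set that differed least. Dnmt3b stood at 8.23 at day 7 and at 8.84 at day 0, a difference of -0.61. Dnmt3a was at the floor on both arrays and was not measured. None of the 3 was past 2-fold. Where the probe sets lie relative to the disrupted parts of these genes is not given in the sources used here, so their levels do not check the knockout.

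Placental and keratin genes were the first 4 by the rule used for naming. Plac1, an X-linked gene of the placental trophoblast, had a level of 12.62 at day 7 and was at the floor of 5.37 at day 0, so it was at least 153-fold higher at day 7. Krt19, a keratin of simple epithelia, had 12.55 at day 7 and 7.08 at day 0, a 44.3-fold difference. Krt8, which pairs with Krt18 in the first keratin filaments of the embryo, had 14.17 at day 7 against 8.90 at day 0, and its 3 measurable probe sets differed by 5.11 to 5.27 on the log2 scale. Krt7, a keratin much used to mark trophoblast, had 11.87 at day 7 and 6.61 at day 0. The 5 genes Plac1, Krt19, Krt8, Krt7 and Slc39a8 were the only ones of all 13277 with a difference of 32-fold or more. Slc39a8, an importer of zinc and manganese, had 10.52 at day 7 and 5.46 at day 0, and its second probe set, at the floor at day 0, differed by at least 2.92.

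The other 10 of these 15 genes differed by 4.17 to 4.75 on the log2 scale. Rhox6, a homeobox gene of an X-linked reproductive cluster that is expressed in placenta, had 12.37 at day 7 and 7.62 at day 0. Sct, which encodes the hormone secretin, had 11.30 at day 7 and 6.64 at day 0. Car4, a membrane-anchored carbonic anhydrase, had 12.19 at day 7 and 7.61 at day 0, with both probe sets within 4.58 to 4.62. The remaining genes were Gdpd3, a lysophospholipase D, Sbsn, a secreted protein of stratified epithelia, Irx3, a homeobox factor, Septin4, a filament-forming GTPase, Vnn1, a pantetheinase, Mbnl3, an X-linked splicing regulator, and Acta1, skeletal muscle actin. Of the 15 genes, 3 lie on the X chromosome (Plac1, Rhox6 and Mbnl3).

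The 15 lowest genes included 6 that encode matrix proteins or their cross-linker (Tnc, Lox, Postn, Mgp, Col3a1 and Bgn) and both lysozymes. Lyz1, a lysozyme of macrophages and Paneth cells, was at the floor at day 7 and at 10.20 at day 0, a difference of at least 28.5-fold. Lyz2, the macrophage lysozyme, had 5.84 at day 7 and 9.35 at day 0. Lyz1 and Lyz2 are close relatives, so their probe sets may not tell them apart. Tnc, the matrix glycoprotein tenascin C, had 5.38 at day 7 and 9.94 at day 0, a 23.6-fold difference. Postn, the fibroblast matrix protein periostin, had 5.40 at day 7 and 9.10 at day 0. Lox, which cross-links collagen, had 5.45 at day 7 and 9.20 at day 0, with both probe sets between -3.75 and -3.73. Bgn, the proteoglycan biglycan, had 7.97 at day 7 and 11.08 at day 0.

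Fosb, an immediate-early component of AP-1, had 5.41 at day 7 against 9.28 at day 0. S100a4, a calcium-binding protein of fibroblasts, had 5.77 at day 7 and 9.54 at day 0. Nphs1, which encodes the slit diaphragm protein nephrin, had 7.75 at day 7 and 10.78 at day 0. The rest of the 15 lowest were Ptgs2 (cyclooxygenase 2), Msc (the transcription factor musculin), Mgp (matrix Gla protein), Col3a1 (type III collagen), Grem1 (a BMP antagonist) and Cd44 (the hyaluronan receptor), at -3.37 to -2.96. For 9 of these 15 genes the day 7 level was within 0.3 of the floor, and the day 0 level of all 15 was 8.57 or more.

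Genes were next grouped into 38 lists by role, chosen with earlier results of these data known. Of 647 list entries, 555 were measured. A list is described by how many of its measured members were past 2-fold, to be read against 9.96% higher and 4.27% lower over all measured genes, and by its median difference, to be read against 0.06. In 6 of the 38 lists the median lay within 0.1 of 0. Members beyond the 5 that differed most in a list are named outside the naming rule, after their values were seen.

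**Figure D2:**
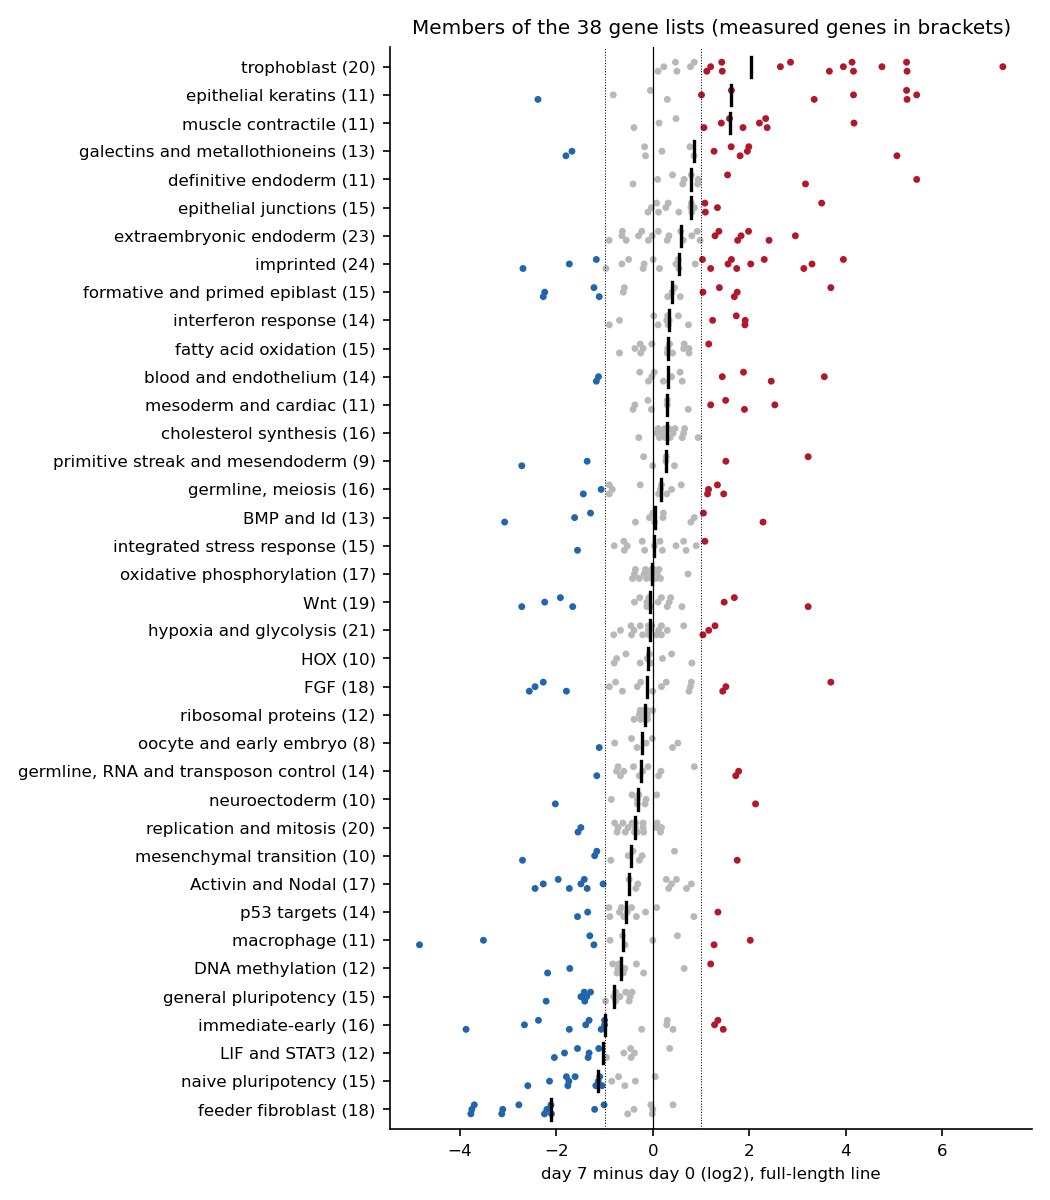
Day 7 minus day 0 on the log2 scale in the full-length line for the measured members of 38 gene lists, 1 point a gene, with the number of measured members in brackets. Red points are at least 2-fold higher at day 7, blue points at least 2-fold lower, grey points neither, and a black bar is the list's median. Trophoblast genes have a median of 2.04 and feeder fibroblast genes one of -2.10, the ends of the order as drawn. With the floor at the 60th percentile epithelial keratins (4.16) and macrophage genes (-1.22) stand at the ends. With members past 2-fold left out where their probe sets disagreed, contractile genes (1.65) stand at the upper end.

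General pluripotency genes were lower at day 7 than at day 0 without exception among those measured, but mostly by small amounts. All 15 measured members lay below 0, the median difference was -0.81, and 6 of them were at least 2-fold lower. Pou5f1, the central POU factor of pluripotency, had 13.21 at day 7 and 14.02 at day 0. Sox2, its partner, had 12.78 at day 7 and 13.46 at day 0, and Nanog, a homeobox factor of the same circuit, had 13.36 at day 7 and 13.83 at day 0. None of these 3 was past 2-fold. Zfp296, a zinc finger protein of stem cells, had 9.49 at day 7 and 11.70 at day 0, the largest difference of the list. Tdgf1, the Nodal co-receptor, had 12.65 at day 7 against 14.07 at day 0, and Dppa2, which opens chromatin at early embryonic genes, had 11.84 at day 7 against 13.21 at day 0.

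Naive pluripotency genes differed more. Of 15 measured members 10 were at least 2-fold lower at day 7 and 0 were higher, with a median of -1.13. Klf4, a Krüppel-like factor downstream of LIF, had 10.08 at day 7 and 12.22 at day 0, and Klf5 had 10.33 at day 7 and 12.07 at day 0. Nr5a2, a nuclear receptor that maintains Pou5f1, had 9.47 at day 7 and 11.26 at day 0. Jam2, a junctional adhesion molecule, had 9.32 at day 7 and 11.91 at day 0, though 1 of its 5 probe sets differed by only -0.68. Dppa3, a maternal factor that protects methylation in the zygote, was the exception, with 12.12 at day 7 and 12.07 at day 0. In the LIF and STAT3 list 6 of 12 members were lower and 0 higher, with a median of -1.04. Socs3, the feedback inhibitor of the LIF receptor, had 10.35 at day 7 and 12.39 at day 0, and Lifr, the receptor itself, had 9.01 at day 7 and 10.84 at day 0. The 3 probe sets of Lifr ran between -1.83 and -0.45.

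Formative and primed epiblast genes split. Of 15 measured members 5 were higher and 4 lower at day 7. Fgf5, the growth factor that marks the epiblast after implantation, had 9.21 at day 7 and 5.52 at day 0, a 12.9-fold difference, while its second probe set differed by 2.15 on the log2 scale. Cdh2, N-cadherin, had 9.86 at day 7 and 8.11 at day 0. Sall2, a zinc finger factor, had 8.45 at day 7 and 6.76 at day 0. In the other direction, Lef1, a partner of beta-catenin, had 7.54 at day 7 and 9.78 at day 0, and Etv4, a target of FGF signalling, had 6.46 at day 7 and 8.73 at day 0.

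Of 17 measured Activin and Nodal pathway genes 8 were at least 2-fold lower at day 7, after the Activin A step, 0 were higher and 9 were neither. The median was -0.49, and 6 members lay above 0. Lefty1, a feedback inhibitor and target of Nodal, had 11.88 at day 7 and 13.84 at day 0, and Lefty2 had 10.72 at day 7 and 12.45 at day 0. Nodal, the ligand, had 10.51 at day 7 and 11.87 at day 0. Inhba, which encodes the chain of Activin A itself, had 6.64 at day 7 and 8.91 at day 0. Inhbb had 6.20 at day 7 and 8.64 at day 0, but a second probe set differed by 0.45 in the other direction. The receptors Acvr1b, Acvr2a and Acvr2b and the signal carriers Smad2 and Smad3 were all less than 2-fold apart.

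Of the primitive streak and mesendoderm list, only 9 of 18 genes were measured, and T was not analysed here. Mixl1, Gsc, Wnt3, Wnt3a, Tbx6, Cer1, Lhx1 and Cdx1 had mean signals below the floor. Among those measured, 2 were higher and 2 lower, with a median of 0.27. Frzb, a secreted Wnt inhibitor, had 8.77 at day 7 and 5.55 at day 0. Fgf8, a growth factor of the streak, had 6.88 at day 7 and was at the floor at day 0, and its day 4 level was 9.43. Sp5, a direct target of Wnt signalling, was at the floor at day 7 and at 8.08 at day 0. Eomes, a T-box factor of the streak and of trophoblast, had 7.23 at day 7 and 6.96 at day 0.

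Endoderm genes were partly higher. In the definitive endoderm list 3 of 11 measured genes were higher and 0 lower, and Krt19, described above, was one of them. Sox17, a factor of both definitive and extraembryonic endoderm, had 8.38 at day 7 and 6.83 at day 0. Tmprss2, a transmembrane serine protease, had 8.53 at day 7 and was at the floor at day 0. In the extraembryonic endoderm list 7 of 23 measured genes were higher and 0 lower, with a median of 0.58. Afp, alpha-fetoprotein, had 8.32 at day 7 and was at the floor at day 0. Lrp2, the uptake receptor megalin, had 9.48 at day 7 and 7.07 at day 0. Col4a1 and Col4a2, the paired chains of basement membrane collagen, had 10.66 and 9.49 at day 7 against 8.90 and 7.66 at day 0.

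Trophoblast genes had a median of 2.04, the highest of the 38 lists as counted here. Keratins of the epithelial list were higher with the floor at the 60th percentile (4.16 against 3.23). With members past 2-fold left out where their probe sets disagreed, these keratins (1.63) and contractile genes (1.65) were higher than trophoblast genes (1.44). That setting kept every member not past 2-fold, so it could remove only higher members from the trophoblast list. All 20 trophoblast genes were measured, all 20 lay above 0, 14 were at least 2-fold higher at day 7, and 0 were lower. These counts and the rank are descriptions only, since the list was chosen with earlier results of these data known. The mean signal that made a gene measured also includes the day 7 array. Rhox9, a neighbour of Rhox6 on the X chromosome, had 11.79 at day 7 and 7.66 at day 0. Ascl2, an imprinted bHLH factor that the spongiotrophoblast needs, had 9.80 at day 7 and 5.85 at day 0, and its 3 probe sets differed by 2.95 to 3.95. Elf5, an ETS factor of trophoblast stem cells, had 8.22 at day 7 and was at the floor at day 0. Gata3, which promotes the trophoblast fate, had 8.01 at day 7 and was at the floor at day 0. Not past 2-fold were Cdx2, with 5.93 at day 7 and 5.46 at day 0, Tfap2c, with 11.62 at day 7 and 11.12 at day 0, and Tead4, Wnt7b, Esx1 and Dlx3. Plet1, a surface protein of trophoblast progenitors, had 11.72 at day 7 and 8.06 at day 0, but its 3 probe sets differed by between 0.51 and 4.07.

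The summed linear signal of the 20 trophoblast genes was 66477 at day 7 and 5866 at day 0. In the deletion line the same sum was 22128 at day 7 and 5571 at day 0. Krt8 and Krt18, keratins of simple epithelia in general, carried more than the other 18 at day 7: without them the sum was 28961 at day 7 and 4320 at day 0 in the full-length line. Members at the floor numbered 0 at day 7 and 3 at day 0 in the full-length line.

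Of 11 measured keratins of the epithelial list, 7 were higher and 1 was lower at day 7, with a median of 1.63. Krt7, Krt8 and Krt18 also stand in the trophoblast list, so these 3 are counted in both. Among all 23 measured keratins, taken by symbol, 9 were higher and 1 was lower, and the median was only 0.11. Krt18 had 14.22 at day 7 and 10.06 at day 0. Krt14, a keratin of the basal layer of stratified epithelia, had 8.71 at day 7 and was at the floor at day 0. Krt17 was the exception, with 5.55 at day 7 and 7.93 at day 0. Of 15 junction genes 4 were higher, 0 lower and 11 neither. Dsc2, a desmosomal cadherin, had 9.38 at day 7 and 5.88 at day 0, and Dsp, desmoplakin, had 11.74 at day 7 and 10.40 at day 0. Cdh1, E-cadherin, had 13.03 at day 7 and 12.76 at day 0, and Epcam, an epithelial adhesion protein, had 13.18 at day 7 and 13.21 at day 0.

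Promoter sequences are printed for 5 of these higher genes, because they were higher together and CpG sites are where DNMT1 acts. They are the 250 bases before the transcription start in RefSeq annotation of build GRCm38.p6, written 5′ to 3′ along the gene's own strand, with CpG sites in capitals. Plac1 has 2 annotated starts.
Plac1, farther start (chrX:53240111-53240360, minus strand): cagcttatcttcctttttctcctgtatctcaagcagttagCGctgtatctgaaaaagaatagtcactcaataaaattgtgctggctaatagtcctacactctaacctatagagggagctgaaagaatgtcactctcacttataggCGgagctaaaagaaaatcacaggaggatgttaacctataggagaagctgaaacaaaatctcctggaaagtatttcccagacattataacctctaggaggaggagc
Plac1, nearer start (chrX:53114406-53114655, minus strand): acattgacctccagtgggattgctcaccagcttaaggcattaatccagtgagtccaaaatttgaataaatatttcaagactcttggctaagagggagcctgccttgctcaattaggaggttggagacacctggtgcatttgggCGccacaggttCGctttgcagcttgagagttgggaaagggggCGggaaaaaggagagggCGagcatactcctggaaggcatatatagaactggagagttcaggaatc
Krt7 (chr15:101412153-101412402, plus strand): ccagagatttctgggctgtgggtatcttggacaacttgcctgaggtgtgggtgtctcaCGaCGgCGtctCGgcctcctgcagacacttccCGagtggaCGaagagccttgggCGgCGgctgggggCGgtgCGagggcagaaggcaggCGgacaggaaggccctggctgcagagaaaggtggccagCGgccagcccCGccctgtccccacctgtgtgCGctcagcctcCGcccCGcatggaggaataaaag
Krt8 (chr15:102004343-102004592, minus strand): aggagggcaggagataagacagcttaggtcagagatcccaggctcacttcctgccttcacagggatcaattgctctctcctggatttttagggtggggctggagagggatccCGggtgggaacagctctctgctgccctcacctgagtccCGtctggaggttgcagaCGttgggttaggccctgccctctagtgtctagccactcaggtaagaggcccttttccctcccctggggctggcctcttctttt
Krt18 (chr15:102027966-102028215, plus strand): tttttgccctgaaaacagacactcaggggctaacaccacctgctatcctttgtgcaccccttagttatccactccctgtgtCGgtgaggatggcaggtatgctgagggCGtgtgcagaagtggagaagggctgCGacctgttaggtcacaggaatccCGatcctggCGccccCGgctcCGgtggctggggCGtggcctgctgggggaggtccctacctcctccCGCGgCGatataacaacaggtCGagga
Ascl2 (chr7:142969265-142969514, minus strand): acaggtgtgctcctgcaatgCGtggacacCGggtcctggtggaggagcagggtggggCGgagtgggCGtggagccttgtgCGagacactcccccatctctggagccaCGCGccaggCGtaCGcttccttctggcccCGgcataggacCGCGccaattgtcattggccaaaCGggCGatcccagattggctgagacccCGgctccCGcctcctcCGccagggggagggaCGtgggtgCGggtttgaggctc
The 2 windows of Plac1 hold 2 and 4 CpG sites, and that of Krt8 holds 3. The windows of Krt7, Krt18 and Ascl2 hold 16, 12 and 19. The printed windows of higher genes thus differ in their number of CpG sites. The CpG observed-over-expected ratios of Krt7, Krt18 and Ascl2 were 0.60, 0.53 and 0.67. Each lies below the median of 0.725 over measured genes with exactly 1 promoter entry. The AP-2 letters GCCNNNGGC occur at 2 positions in the Krt7 window and at 1 in that of Krt18, and the GATA letters AGATAA at 1 position in the Krt8 window and at 1 in the Plac1 window of the farther start, searched on both strands. Such matches are descriptions of these letters only. In all 22862 genes with 1 promoter entry, 13.3% hold the AP-2 letters and 10.4% the GATA letters. Among the 8498 of them that were measured, the shares were 20.9% and 5.5%.

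For contrast, the windows of Fos and Lyz1, which were lower at day 7, are given in the same way.
Fos (chr12:85473640-85473889, plus strand): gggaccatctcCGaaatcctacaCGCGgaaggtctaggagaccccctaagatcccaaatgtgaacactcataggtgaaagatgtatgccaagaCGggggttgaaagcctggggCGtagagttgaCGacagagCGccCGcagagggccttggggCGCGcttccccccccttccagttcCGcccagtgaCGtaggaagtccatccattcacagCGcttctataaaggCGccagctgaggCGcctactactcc
Lyz1 (chr10:117292869-117293118, minus strand): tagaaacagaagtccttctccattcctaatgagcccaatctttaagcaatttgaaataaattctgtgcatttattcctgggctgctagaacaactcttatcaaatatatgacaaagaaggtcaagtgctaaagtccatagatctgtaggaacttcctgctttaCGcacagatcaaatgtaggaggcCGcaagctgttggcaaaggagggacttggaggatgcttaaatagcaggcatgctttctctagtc
Fos has 15 CpG sites in its window and Lyz1 has 2. The AP-2 letters occur at 1 position in the Fos window and at 0 in that of Lyz1, and the GATA letters at 0 in both. Over the 8498 measured genes with exactly 1 promoter entry the median was 16 CpG sites and a CpG observed-over-expected ratio of 0.725. The 807 higher genes among them had a median of 13 sites and a ratio of 0.629. The 329 lower genes had 13 sites and 0.620, so higher and lower genes had nearly the same CpG content, and both had less than the 7362 genes less than 2-fold apart, which had 16 sites and 0.739. AP-1 letters (TGANTCA) occurred in 6.07% of the windows of higher genes, in 2.13% of those of lower genes and in 4.05% of all measured. The AP-2 letters occurred in 23.1% of higher genes, 16.1% of lower genes and 20.9% of all measured. These shares are descriptions with no test.

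Contractile genes were also higher at day 7. Of 11 measured members 8 were higher and 0 lower, with a median of 1.59. Acta1, skeletal muscle actin, had 11.37 at day 7 and 7.20 at day 0. Cnn1, calponin of smooth muscle, had 8.67 at day 7 and 6.30 at day 0. Tagln, transgelin, had 11.56 at day 7 and 9.35 at day 0, and Tpm1, a tropomyosin, had 13.25 at day 7 and 10.91 at day 0. Acta2, smooth muscle actin, had 12.23 at day 7 and 10.81 at day 0. In the mesoderm and cardiac list 4 of 11 were higher and 0 lower, with a median of 0.30 and with Myl4, an atrial myosin light chain, at 9.70 at day 7 and 7.17 at day 0. In the blood and endothelium list 4 of 14 were higher and 2 lower. Hbb-y, an embryonic beta globin, had 8.92 at day 7 and was at the floor at day 0, and Cdh5, VE-cadherin of endothelium, had 7.82 at day 7 and was at the floor at day 0. Globin genes are near copies of each other, so the split between Hbb-y and Hbb-bh1 is uncertain.

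In the neuroectoderm list 1 of 10 measured genes was higher, 1 lower and 8 neither. The median was -0.305, and 8 members lay below 0. Sox1, an early neural factor, had 8.83 at day 7 and 6.70 at day 0, and Neurod1, a neuronal bHLH factor, had 7.73 at day 7 and 9.75 at day 0. None of 10 measured HOX genes was past 2-fold, and 8 of the 18 of the list were not measured.

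Imprinted genes, expressed from the allele of 1 parent and dependent on DNA methylation for it, were more often higher. Of 24 measured members 10 were higher and 3 lower, with a median of 0.54. Cdkn1c, a cell cycle inhibitor, had 12.19 at day 7 and 8.89 at day 0. Nnat, neuronatin, had 9.73 at day 7 and 6.60 at day 0. Peg10, a retrotransposon-derived gene that the placenta needs, had 8.73 at day 7 and 6.42 at day 0. Igf2, a fetal growth factor, had 9.75 at day 7 and 8.19 at day 0. Lower were Dlk1, a Notch-like ligand, with 6.01 at day 7 and 8.70 at day 0, Grb10, an adaptor that restrains growth, and Mirg. Allele-specific expression was not measured.

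In the DNA methylation list 1 of 12 measured genes was higher, 2 were lower and 9 neither. The median was -0.655, and 10 members lay below 0. The 2 lower genes were Tet1 and Tet2, which encode enzymes that oxidise methylated cytosine. Tet1 had 10.73 at day 7 and 12.91 at day 0, with its 4 probe sets between -2.37 and -1.54. Tet2 had 8.76 at day 7 and 10.48 at day 0. Mbd2, a reader of methylated DNA, had 9.54 at day 7 and 8.34 at day 0. Uhrf1, which brings DNMT1 to replicating DNA, had 12.34 at day 7 and 12.68 at day 0.

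Germline genes, many of which are methylated in normal somatic cells, lay on both sides of 0. Of 16 measured meiosis genes 4 were higher and 2 lower, with a median of 0.17. Sycp1, a synaptonemal complex protein, had 8.26 at day 7 and 6.79 at day 0. Hormad1, a meiotic chromosome axis protein, had 6.91 at day 7 and 8.35 at day 0. In the RNA and transposon control list 2 of 14 were higher and 1 lower. Tex19.2 had 9.79 at day 7 and 8.01 at day 0, Asz1, a piRNA pathway protein, had 9.07 at day 7 and 7.35 at day 0, and Piwil2, a PIWI protein, had 7.88 at day 7 and 9.04 at day 0. In the oocyte and early embryo list 8 of 16 genes were measured, 0 were higher, and Khdc3, of the subcortical maternal complex, was lower, with 9.93 at day 7 and 11.04 at day 0.

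Markers of cells that could accompany stem cells in culture were also listed. Of 18 feeder fibroblast markers 12 were lower and 0 higher, with a median of -2.10. Their summed linear signal was 3091 at day 7 and 8870 at day 0, and 5 of 18 were at the floor at day 7 against 1 of 18 at day 0. Thy1, a fibroblast surface protein, had 7.06 at day 7 and 9.17 at day 0, whereas Col1a2, a collagen I chain, had 9.87 at day 7 and 10.39 at day 0. Of 11 measured macrophage markers 4 were lower, 2 higher and 5 neither, with a median of -0.62. Their summed signal over all 15 was 1850 at day 7 and 3457 at day 0, with 10 of 15 at the floor at day 7 and 3 of 15 at day 0. C1qb, a complement subunit, was at the floor at day 7 and at 6.67 at day 0, Itgam and Aif1 were at the floor on both arrays, and Csf1r, the macrophage growth factor receptor, had 8.88 at day 7 and 6.86 at day 0 in its brightest probe set. The 3 probe sets of Csf1r ran between 0.33 and 2.02. Feeder cells are not named in the labels, and the part of such cells in the lower genes was not tested.

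Immediate-early genes, which respond to growth factors within minutes, were mostly lower too. Of 16 measured members 9 were lower and 3 higher at day 7, with a median of -1.0. Fos had 10.75 at day 7 and 13.41 at day 0, and Egr1 had 10.72 at day 7 and 13.09 at day 0. Atf3, a stress-induced factor, had 8.73 at day 7 and 7.27 at day 0, in the other direction. Ier2 and Nr4a1, exactly 2-fold lower, were the members nearest inside the threshold, Krt80 was just inside on the higher side with 1.01, and Sparc with 0.98 and Sall4 with -0.98 were just outside it.

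The BMP, FGF and Wnt lists had members past 2-fold in both directions and medians of 0.04, -0.125 and -0.05. In the BMP and Id list 2 of 13 were higher and 3 lower. Id1, a dominant-negative bHLH protein and target of BMP, had 10.66 at day 7 and 11.95 at day 0, Id3 had 9.55 at day 7 and 11.17 at day 0, and Id2 had 10.74 at day 7 and 9.69 at day 0. A second measurable probe set of Id2 differed by 0.44 only. In the FGF list 3 of 18 were higher and 4 lower, among them Spry4, a feedback inhibitor, with 7.79 at day 7 and 10.23 at day 0, and Fgf17, with 7.05 at day 7 and 9.61 at day 0. In the Wnt list 3 of 19 were higher and 4 lower. Fzd2, a Wnt receptor, had 10.34 at day 7 and 8.65 at day 0, and Wnt5a, a ligand of non-canonical signalling, was at the floor at day 7 and at 7.28 at day 0.

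Galectins, metallothioneins and zinc transporters had 6 of 13 members higher and 2 lower. Lgals3, a galectin of epithelia and macrophages, had 12.95 at day 7 and 10.96 at day 0, and Lgals9 had 9.91 at day 7 and 7.95 at day 0, while Slc30a1, a zinc exporter, had 9.12 at day 7 and 10.92 at day 0. In the interferon response list 4 of 14 were higher and 0 lower, led by Irf7 and Rsad2, an antiviral enzyme that had 9.10 at day 7 and 7.19 at day 0. Ccnd1 and Ccnd2, D-type cyclins, were the only 2 of 20 replication and mitosis genes past the fold, with 9.56 and 8.63 at day 7 against 11.11 and 10.12 at day 0. No member was past 2-fold among 16 cholesterol synthesis genes, 17 oxidative phosphorylation genes and 12 ribosomal protein genes. Higher were 3 and lower 0 of 21 hypoxia and glycolysis genes, 1 and 2 of 14 p53 targets, 1 and 1 of 15 genes of the integrated stress response, and 1 and 0 of 15 fatty acid oxidation genes. Of 10 mesenchymal genes 1 was higher and 3 were lower, among them Cdh11, a mesenchymal cadherin, which had 5.87 at day 7 and 8.57 at day 0.

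The X chromosome had a larger share of higher genes than any autosome. Of its 457 measured genes 82 were at least 2-fold higher at day 7, which is 17.9%, against 1239 of 12751 autosomal genes (9.72%). Between autosomes the share ran between 8.14% on chromosome 11 and 12.4% on chromosome 13. X-linked genes that were lower numbered 17 (3.72%), against 4.28% of autosomal genes. The median difference was 0.22 on the X chromosome and 0.05 on the autosomes. Counting only genes whose measurable probe sets all passed 2-fold the same way left 67 X-linked genes (14.7%) and 8.37% of autosomal genes, where all measured genes gave 8.56% higher and 3.3% lower. These shares have no test.

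The X-linked genes named next were picked after their values were seen. Besides Plac1, Rhox6, Rhox9 and Mbnl3 they include Nrk, a kinase of the placenta, with 11.45 at day 7 and 7.76 at day 0, Ldoc1, a retrotransposon-derived gene, with 11.07 at day 7 and 7.46 at day 0, and Capn6, a calpain-like protein found in placenta, with 8.59 at day 7 and 6.54 at day 0. Xist, the RNA that coats and silences an X chromosome, had 10.07 at day 7 and 8.50 at day 0, and its other measurable probe sets, both at the floor at day 0, differed by at least 1.35 and at least 2.29. In the deletion line 12.3% of X-linked genes and 6.02% of autosomal genes were at least 2-fold higher at day 7, with 10.6% on chromosome 11, where the median difference of that line was 0.36 against 0.05 on its X chromosome. Xist had 9.67 at day 7 and 9.12 at day 0 there. The number of X chromosomes in either line is not given in the sources used here.

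**Figure D3:**
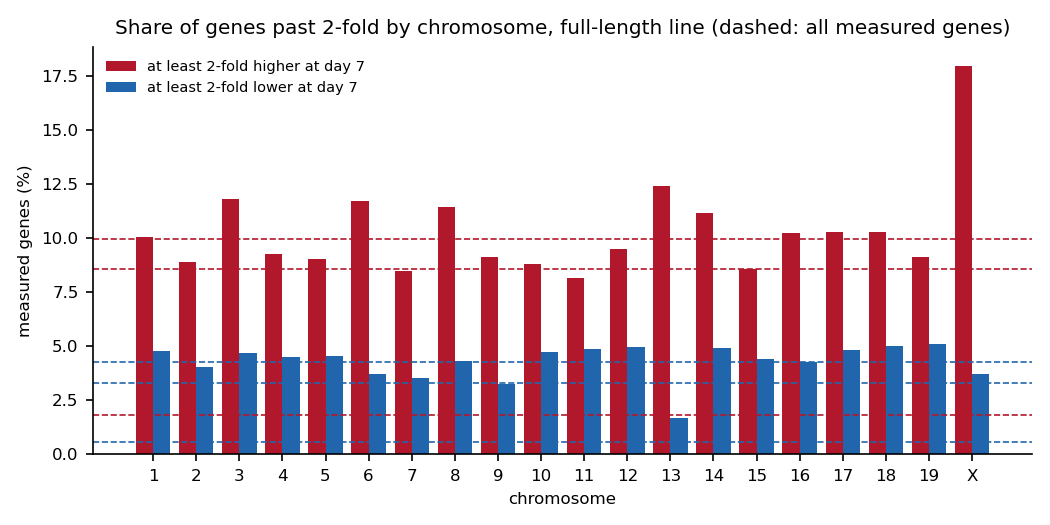
Share of measured genes, in percent, at least 2-fold higher (red bars) or lower (blue bars) at day 7 than at day 0 in the full-length line, by chromosome. Dashed lines mark shares over all measured genes, red for higher and blue for lower. The bars are to be read against 9.96% higher and 4.27% lower. The other dashed lines are 8.56% and 3.3%, past 2-fold in every measurable probe set, and 1.82% and 0.58%, at least 4-fold. The X chromosome has the tallest red bar, 17.9%, and chromosome 13 the shortest blue one, 1.66%.

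Several probe sets measured the same gene, which allowed a check of each difference within the 2 arrays. Among the 1323 higher genes 453 had more than 1 measurable probe set, all probe sets passed 2-fold in the same direction for 266 of them (58.7%), and all had the same sign for 431 (95.1%). Among the 567 lower genes 231 had more than 1, all passed 2-fold for 102 (44.2%), and all had the same sign for 207 (89.6%). A probe set past 2-fold in the opposite direction was found for 4 higher and 3 lower genes. Over 5219 genes the brightest and the next probe set correlated with r = 0.768 across genes, and the 90th percentile of their gap was 0.79 on the log2 scale. The other 870 higher and 336 lower genes had a single measurable probe set and no such check.

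The 5 genes past the fold with the widest spread between probe sets were Plet1, Mycn, Gab2, Dido1 and Sel1l3. Mycn, a MYC family factor of stem cells, had 11.26 at day 7 and 13.56 at day 0 in its brightest probe set, and its probe sets ran between -2.30 and 1.23. Gab2, a signalling adaptor, had 10.12 at day 7 and 6.31 at day 0, but a second probe set differed by 0.48 only. Sel1l3 had 7.55 at day 7 and was at the floor at day 0, with a second probe set, at the floor at day 7, at -1.04 as a bound. Dido1 had 8.89 at day 7 and 11.86 at day 0, and its 4 probe sets ran between -2.97 and 0.30. The direction of Mycn, Dido1 and Sel1l3 therefore depends on the probe set.

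**Figure D4:**
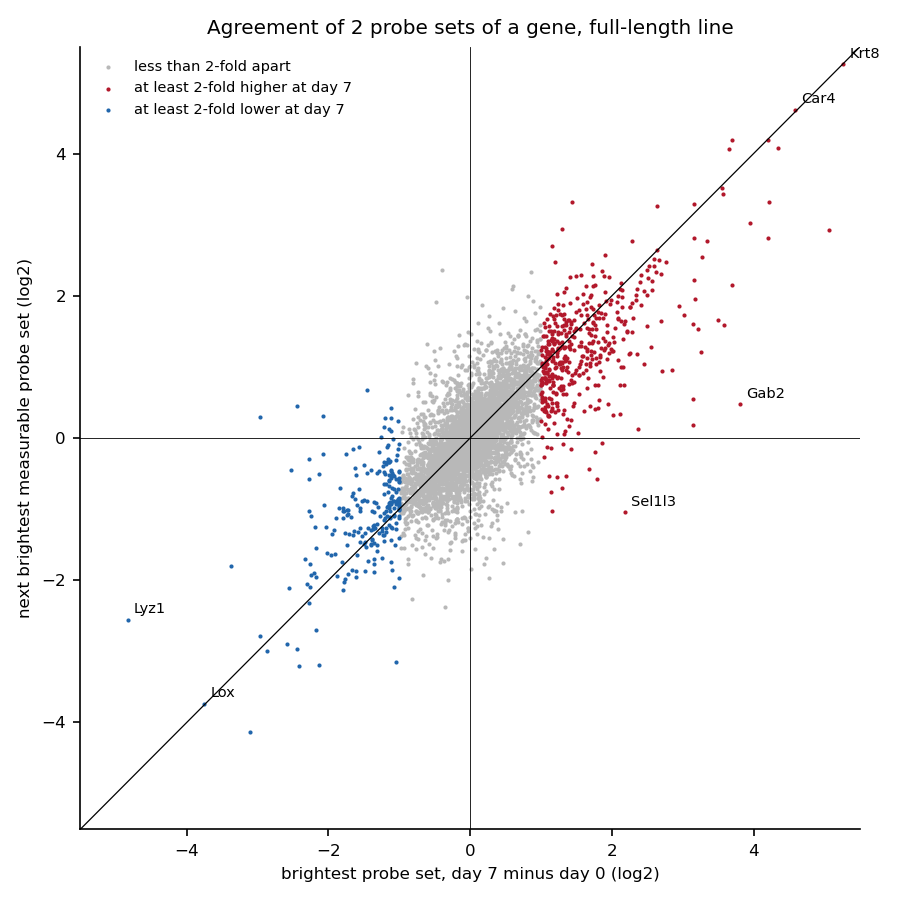
Day 7 minus day 0 on the log2 scale in the full-length line for the brightest (horizontal axis) and the next brightest measurable probe set (vertical axis) of 5219 genes, 1 point a gene, with genes at least 2-fold higher in red and lower in blue. Krt8, Car4 and Lox lie on the line of equality, while Gab2 and Sel1l3 lie far below it.

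The day 4 array shows where the cells stood before the Activin A step. Since day 4 and day 7 would share the day 0 array as their baseline, the levels are given side by side. Plac1 was at 5.37, 9.29 and 12.62 at days 0, 4 and 7. Krt8 had 8.90, 13.33 and 14.17 on these days, so most of its difference was present at day 4. Elf5 had 5.37, 5.41 and 8.22, near the floor until after day 4. Acta1 had 7.20, 12.22 and 11.37, and Fgf5 had 5.52, 11.70 and 9.21, both with their highest level at day 4. Klf4 had 12.22, 8.71 and 10.08, a day 7 level between the other 2. The naive list had a median difference from day 0 of -2.20 at day 4 and of -1.13 at day 7, the trophoblast list of 0.93 at day 4 and 2.04 at day 7, and the Nodal list of 0.09 at day 4 and -0.49 at day 7. Cdkn1c had 8.89, 8.45 and 12.19, and Lyz1 had 10.20, 5.37 and 5.37.

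The deletion line shares no array with this comparison and gives its own day 7 against day 0. In it 830 genes (6.25%) were at least 2-fold higher and 627 (4.72%) lower. Genes higher in both lines numbered 314, which is 23.7% of the higher genes of the full-length line and 37.8% of those of the deletion line. Genes lower in both numbered 176, 31.0% of the full-length line's and 28.1% of the deletion line's. Of the full-length line's higher genes 44 (3.33%) were at least 2-fold lower in the deletion line, and of its lower genes 17 (3.00%) were higher there. Across the 13277 genes the 2 net differences correlated with r = 0.362, a description across genes. The 1323 higher genes had a median of 1.39 in the full-length line, by which they were chosen, and of 0.40 in the deletion line.

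Among the 15 highest genes 13 were also at least 2-fold higher in the deletion line, the exceptions being Irx3 and Mbnl3, and among the 15 lowest 12 were also lower. Plac1 had 7.41 at day 7 and 6.09 at day 0 in the deletion line, a difference of 1.32, against at least 7.25 in the full-length line. Krt7 had 9.35 at day 7 and 6.31 at day 0 there, and Sct had 8.71 at day 7 and 5.98 at day 0. Ascl2 had 7.62 at day 7 and 7.63 at day 0 in the deletion line, and Elf5 was at the floor on both of its arrays. Medians of the lists in the deletion line were 1.18 for trophoblast, -0.01 for contractile, -0.28 for imprinted, -0.10 for general pluripotency and -0.25 for naive pluripotency genes, where the full-length line had 2.04, 1.59, 0.54, -0.81 and -1.13. The feeder fibroblast list had -2.27 in the deletion line and -2.10 in the full-length line. With 1 array per line and day, none of these differences between lines was tested.

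**Figure D5:**
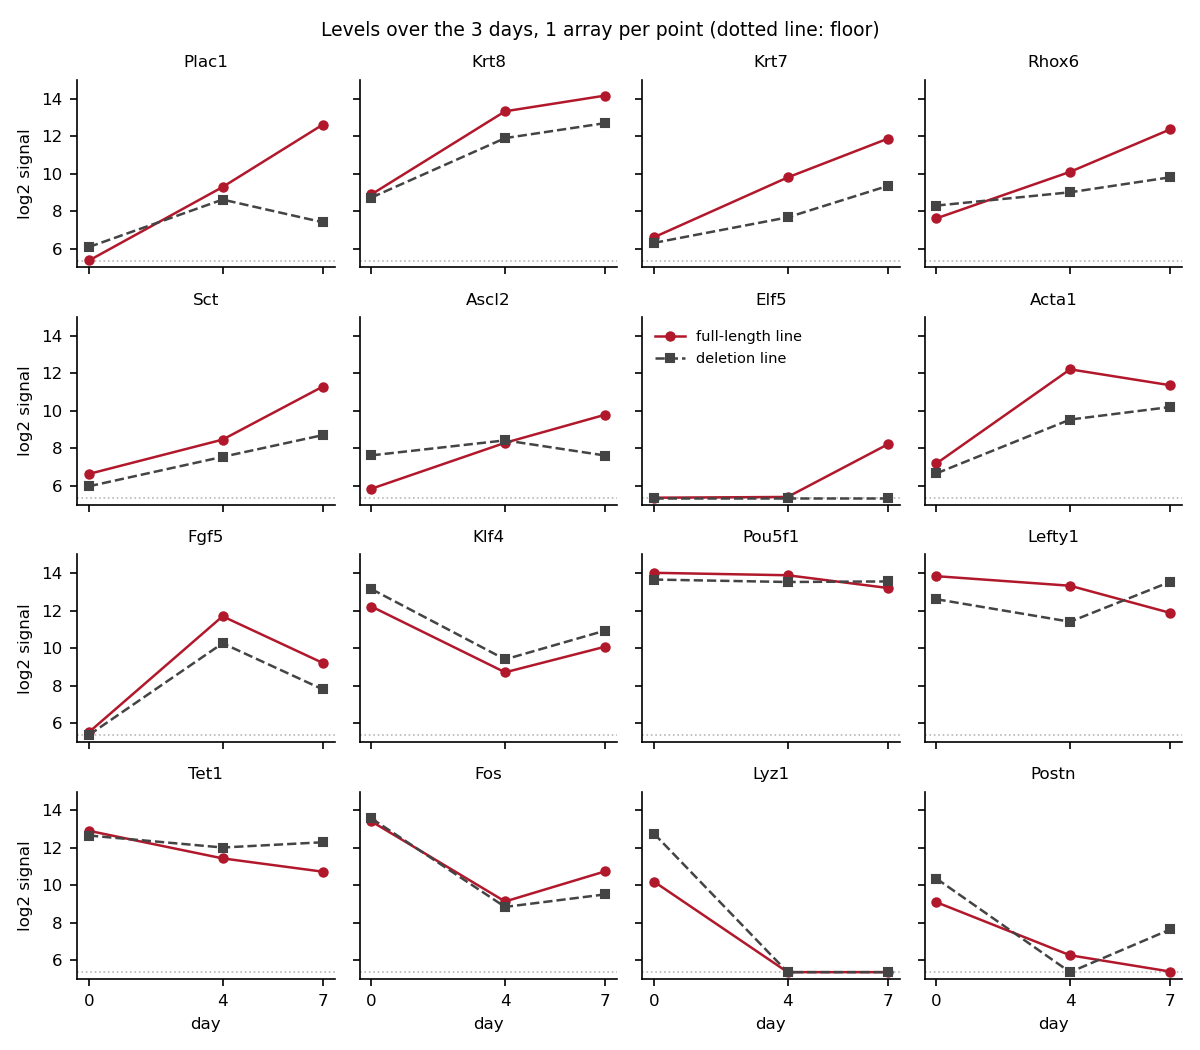
Levels of 16 genes as log2 MAS5 signals at day 0, day 4 and day 7 in cells of the full-length line (red circles, solid) and the deletion line (grey squares, dashed), 1 array per point, with the floor as a dotted line. Plac1, Rhox6 and Elf5 end highest at day 7 in the full-length line, Lyz1 is at the floor at days 4 and 7 in both lines, and Lefty1 ends lower than it began in the full-length line only of the 2 lines.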

How the data were processed

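RNA of 6 samples, 1 for each line and day, was hybridised to Affymetrix arrays. The deposited log2 signals were made by the authors with MAS5 (per the submitters' processing notes). The base was read from the values: 2 to their power gave trimmed mean signals (2% left out at each end) that were nearly equal on all arrays. The sources used here give neither the MAS5 version nor the scaling target. Global scaling removes a shift that most genes share. Samples were grouped by title. The source label of the deletion line at day 0 describes differentiated cells, so its title was used.

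Linear signals under the floor were raised to it before log2 was taken. Gene names came from the platform annotation of 2016, checked against RefSeq gene identifiers: 34945 probe sets had 1 symbol, 932 several and 9160 none, and 34741 of the first were found. The probe set with the highest mean over the arrays stood for its gene, which was measured where that mean reached the floor. A probe set was measurable where day 7 or day 0 reached 2 times the floor. Differences are day 7 minus day 0, with no test. The naming rule took the 15 highest and the 15 lowest genes that reached 4 times the floor and had all measurable probe sets past 2-fold the same way (unnamed gene models left out), up to 5 genes a list, pluripotency and methyltransferase genes, and the 5 genes with the widest probe set spread. Members and lists were chosen with earlier results of these data known. Counting was done in Python 3.11.15 with numpy 2.4.6 and pandas 2.3.3 and was tested on simulated data. Promoters are from RefSeq, and 10679 measured genes had an entry.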

Additional observations from a re-analysis of the deposited data

Results flagged for a closer look

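Of all measured genes, 44 were at least 2-fold higher at day 7 in the full-length line and 2-fold lower in the deletion line, and 17 the other way round. These are 3.33% of the full-length line's 1323 higher genes and 3.00% of its 567 lower genes. Both shares lie below those over all measured genes in the deletion line, 4.72% lower and 6.25% higher. Among the 150 genes with a value that the naming rule took, 6 differed in opposite directions by more than 0.79 in each line, the 90th percentile of the gap between probe sets. The difference between the lines was not tested. Cdh2 differed by 1.75 with full-length DNMT1 and by -1.44 with the deleted form, and Sox1 by 2.13 and -2.05. Adm, the vasodilator peptide adrenomedullin, differed by 1.16 with full-length DNMT1 and by -1.06 with the deleted form. Lefty1 differed by -1.96 with full-length DNMT1 and by 0.93 with the deleted form, Lefty2 by -1.73 and 0.99, and Zfp296 by -2.21 and 0.93.

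The 2 lines had list medians of opposite sign for 13 of the 38 lists, and in 4 of these both medians were 0.24 or more from 0. These, also untested, were 0.40 with full-length DNMT1 and -0.32 with the deleted form for formative and primed epiblast genes, and 0.54 and -0.28 for imprinted genes. For cholesterol synthesis genes they were 0.30 and -0.63, and for germline RNA and transposon control genes -0.24 and 0.80, in the same order of lines.

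Probe sets with no gene symbol or several took no part in the gene counts. In the full-length line 170 of them were at least 2-fold higher and 255 at least 2-fold lower at day 7, of 2082 that reached 2 times the floor on either array. Among named genes the higher ones were more numerous. Named genes were counted through their brightest probe set and filtered on the mean of all arrays, so the 2 counts are not alike.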

How the results depend on the processing

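No paired analysis was possible because each line and day has 1 array and no result comes from a test. Of 8 alternatives, the floor moved the counts of genes most. A floor at the 20th percentile gave 2089 higher and 1147 lower genes, with list medians of 2.55 for trophoblast and -1.56 for macrophage genes (2.04 and -0.62 as reported). A floor at the 60th percentile gave 784 higher and 377 lower genes. Medians were then 3.23 for trophoblast, 4.16 for epithelial keratins, 0.58 for mesoderm and cardiac, -1.14 for feeder fibroblast, -1.22 for macrophage and -0.41 for immediate-early genes. These follow from the floor's construction, since it sets which low genes are measured. Equal medians gave 1178 higher and 650 lower genes, and quantile normalization 1140 and 620, with all 38 list medians within 0.24 of the values above. The mean over all probe sets gave 962 higher and 406 lower genes, with medians of -0.63 for LIF and STAT3, 0.00 for primitive streak, 1.07 for contractile and -1.35 for feeder fibroblast genes. Choosing the brightest probe set on the day 7 and day 0 arrays alone gave a trophoblast median of 2.49 and turned Msh5, a meiotic mismatch repair protein, to -0.21, because another probe set stood for it. No other of the 150 named genes turned where it had a value. Under the mean over probe sets 65 of them moved by 0.24 or more and 17 were no longer past 2-fold; under the 60th percentile floor 48 moved, 9 were no longer past it and 13 had no value. Where probe sets had to agree, 14 had no value. Counting genes past 2-fold only where their measurable probe sets agreed left 1136 higher and 438 lower genes. The lists then lost members past 2-fold whose probe sets disagreed and kept all members not past it. Medians were -0.60 for LIF and STAT3 and 1.44 for trophoblast genes. Dropping the requirement on the brighter array changed no count, since a 2-fold difference above the floor already meets it. With 1 array a side, the number of arrays limits the precision, and low signals near the floor carry the least.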

Other observations

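Gene families taken by symbol, after their values had been seen, show further groups in the full-length line, to be read against 9.96% higher and 4.27% lower over all measured genes. Of 11 measured Serpinb genes, intracellular protease inhibitors, 6 were at least 2-fold higher at day 7 and 0 lower. Serpinb9g had 8.30 at day 7 and Serpinb6b 8.97, and both were at the floor at day 0, while Serpinb9b had 10.67 at day 7 and 8.55 at day 0. Serpinb9, Serpinb9b, Serpinb9c and Serpinb9g are close relatives, so their probe sets may not tell them apart. Of 5 connexins, which form gap junctions, 4 were higher: Gjb2 had 9.06 at day 7 and was at the floor at day 0, Gjb5, a connexin of trophoblast and skin, had 10.21 at day 7 and 7.20 at day 0, and Gja4 and Gja1 were higher by 2.13 and 1.22 on the log2 scale. The 6 probe sets of Gja1 ran between 0.34 and 2.59, so not all of them passed 2-fold. In the deletion line these 5 connexins had a median difference of 0.25, against 2.13 in the full-length line.

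Of 14 claudins, the strands of tight junctions, 5 were higher and 0 lower, with Cldn9 at 7.94 at day 7 and 6.65 at day 0. Of 8 annexins, calcium-dependent membrane binders, 3 were higher and 0 lower, with Anxa3 at 11.01 at day 7 and 8.01 at day 0. Of 18 semaphorins 3 were higher and 1 (Sema6a) was lower. Sema3e and Sema3c, secreted guidance cues, had 10.86 and 9.80 at day 7 against 8.10 and 6.66 at day 0. Of 30 measured collagens 5 were higher, namely Col4a1, Col4a2, Col4a5 and Col4a6, chains of basement membrane collagen IV, and the fibrillar Col2a1. Lower were 8, among them the fibrillar Col3a1 and Col1a1 and the microfibrillar Col6a1, Col6a2 and Col6a3, while the fibrillar Col1a2, Col5a1, Col5a2 and Col11a1 were less than 2-fold apart. Of 13 cathepsins 4 were higher and 3 lower, with Ctsh at 8.45 at day 7 and 6.82 at day 0, and Ctss, a cathepsin of macrophages, at the floor at day 7 and at 7.82 at day 0.

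Six6, a homeobox factor of the eye and pituitary, had 9.07 at day 7 in the full-length line in its single measurable probe set and was at the floor on the other 5 arrays.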
